A study of Mus musculus with 24 samples.

Results

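Semaphorins, neuropilins, plexins, ephrins and Eph receptors were examined in RNA of the medial prefrontal cortex (mPFC) of mouse offspring at postnatal day 21 (P21). A gene was taken if its symbol starts with Sema3, Sema4, Sema5, Sema6, Sema7, Plxn, Epha, Ephb or Efn, or is Nrp1 or Nrp2, and if its mean was at least 5 normalized counts over the 12 libraries of the male table and over the 12 of the female table. The name rule fit 54 of the 24972 genes that each table holds, and 51 of these passed the level rule. They were 20 semaphorins, 2 neuropilins, 9 plexins, 7 ephrins and 13 Eph receptors. Efna4 had a mean of 2.99 normalized counts in males and 4.28 in females and Epha1 had 1.39 and 1.88, so both stayed under the level. Plxna4os1, an antisense transcript of Plxna4, had 4.41 in males and 5.71 in females and was left out for the same reason. The lowest members were well inside the level, with Epha2 at 18.1 normalized counts in males and 20.1 in females.

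The libraries came from 6 male MO, 6 male SAL, 6 female MO and 6 female SAL offspring. MO offspring were born to C57BL/6J dams injected under the skin once a day with morphine sulfate, at lower doses over the first days and then at 10 mg/kg, and SAL offspring to C57BL/6J dams injected with saline, in both groups for a week before breeding, through pregnancy and nursing, until tissue was taken at P21. All sires were DBA/2J, so every animal was a wild-type B6D2F1/J hybrid. The offspring were exposed only by way of the dam. The study took 1 offspring of each sex from a litter, and which male and female libraries are littermates is not given, so the 24 libraries enter joint fits as if unrelated and p-values measure the spread between these libraries.

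These genes encode 2 of the large families of contact and guidance cues of the nervous system. Semaphorins are secreted or membrane-bound ligands that signal through plexins, and the secreted class 3 members mostly need a neuropilin as coreceptor to bind an A-type plexin. Eph receptors are receptor tyrosine kinases whose ligands, the ephrins, are held on the surface of the neighbouring cell by a lipid anchor (ephrin-A) or a transmembrane segment (ephrin-B), so that both cells can receive a signal. In the cortex both systems guide axons before birth and shape dendritic spines and synapses afterwards, and both also act in blood vessels and glia.

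The results turned most on the ephrin gene Efna1, the Eph receptor gene Ephb4 and the semaphorin gene Sema3a, and the stretch around an annotated start of each is shown so that the 3 can be compared. Each window runs from 250 bases before to 50 bases after a RefSeq transcript start in GRCm38.p6, 5′ to 3′ on the gene's own strand. Capitals mark a GC box, searched as GGGCGG on either strand and so also printed as CCGCCC. Efna1 lies on the minus strand (chr3:89280902-89281201), Ephb4 on the plus strand (chr5:137349859-137350158) and Sema3a on the plus strand (chr5:13396534-13396833).

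Efna1: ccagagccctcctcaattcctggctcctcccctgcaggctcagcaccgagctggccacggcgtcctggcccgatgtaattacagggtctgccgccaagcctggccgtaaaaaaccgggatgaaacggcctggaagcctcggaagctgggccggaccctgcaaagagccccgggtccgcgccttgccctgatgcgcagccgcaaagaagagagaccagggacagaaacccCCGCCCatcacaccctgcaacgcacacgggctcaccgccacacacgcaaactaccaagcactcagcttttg
Ephb4: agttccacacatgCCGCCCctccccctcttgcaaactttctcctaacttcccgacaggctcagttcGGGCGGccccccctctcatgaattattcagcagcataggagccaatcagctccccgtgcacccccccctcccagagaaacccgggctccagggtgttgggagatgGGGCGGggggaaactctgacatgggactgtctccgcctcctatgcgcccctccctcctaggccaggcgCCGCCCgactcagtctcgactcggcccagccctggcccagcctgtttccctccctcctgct
Sema3a: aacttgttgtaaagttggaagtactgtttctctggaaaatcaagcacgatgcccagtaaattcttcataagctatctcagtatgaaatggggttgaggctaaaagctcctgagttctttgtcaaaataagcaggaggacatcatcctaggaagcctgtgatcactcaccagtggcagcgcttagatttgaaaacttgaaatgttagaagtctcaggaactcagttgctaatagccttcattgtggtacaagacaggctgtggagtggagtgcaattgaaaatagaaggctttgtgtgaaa

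The Efna1 window shown held 1 GC box at a GC content of 63.7%, a further Efna1 window (chr3:89279596-89279895) held 2 at 63.3%, and the Ephb4 window held 4 at 64.7%. The Sema3a window held 0 at 41.3%, and it belongs to a start inside the Sema3a gene, whose annotated span in GENCODE runs over chr5:13125414-13602565. A promoter window was given for 45 of the 51 members, 59 windows in all. A GC box was present in 76.3% of these windows, and in 35.7% of all 32851 mouse windows of the same length. All windows had a median GC content of 52.7%, and they were not matched to the members for GC content or expression. The letters TATAAA, on either strand, were present in 1.69% of the members' windows, that of Efnb2 alone, and in 13.6% of all windows. These are matches of letters and say nothing of binding.

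The 24 libraries had between 14729000 and 15967000 normalized counts each. Taking the commonest smallest value as the worth of 1 read put the depth at an estimated 13537000 to 20117000 reads. Only 67 to 128 genes held that value in a library, and the values need not be whole reads, so the estimate is rough. The 51 genes together took 0.233 to 0.259% of the normalized counts in male MO libraries and 0.244 to 0.261% in male SAL libraries. In females they took 0.199% in PFC1 and up to 0.25% in the other MO libraries and 0.226 to 0.261% in SAL libraries. The library labelled female MO PFC1 stood apart from the other 11 female libraries: its 8 oligodendrocyte markers summed to 305790 normalized counts, against 31615 to 174660 in the others, and its 5 mature neuron markers summed to 67117, against 91443 or more. It also held the lowest value of the 12 female libraries for 25 of the 51 genes. Cortical glutamatergic neuron markers were present in every library, at a sum of 75783 to 95987, and striatal markers were highest in PFC1 (7382) and in male SAL PFC16 (6216), against 2300 to 4274 in the other libraries. In bulk tissue fewer cells of a type and less RNA in each cell cannot be told apart, and results that rest on PFC1 are given with and without it.

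Eph receptor transcripts spanned the whole range of the 51 genes. Ephb6, an Eph receptor that has lost its kinase activity, had the highest level of the 51 genes per kilobase of exon in all 4 groups, at 810 ± 90.3 normalized counts per kb in male MO, 843 ± 24.8 in male SAL, 711 ± 147 in female MO and 827 ± 71.1 in female SAL (SD, n = 6 each). Epha4, a receptor that binds ephrins of both classes, was the highest of the A class, at 430 ± 60.9 per kb in male MO and 440 ± 21.9 in male SAL, and at 332 ± 101 per kb in female MO and 392 ± 86.9 in female SAL. At the other end stood Epha2, with 3.94 ± 0.76 per kb in male MO, 3.82 ± 0.76 in male SAL, 4.61 ± 2.01 in female MO and 3.99 ± 1.15 in female SAL. Ephb6 and Epha2 were thus the extremes of all 51 genes in every group.

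Among ephrins the B class was led by Efnb3, at 431 ± 58.6 per kb in male MO and 409 ± 47.6 in male SAL, and at 436 ± 51.1 in female MO and 389 ± 49.8 in female SAL. Efna3 led the A class, at 160 ± 15.8 per kb in male MO, 162 ± 10.3 in male SAL, 150 ± 25.1 in female MO and 156 ± 13.5 in female SAL. Efna1, its neighbour at 32.8 kb on chromosome 3, was the lowest ephrin, at 19.2 ± 4.62 per kb in male MO, 16.3 ± 4.34 in male SAL, 21.8 ± 6.27 in female MO and 15.4 ± 3.46 in female SAL.

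Semaphorin transcripts were led by 2 membrane-bound members. Sema7a, which is held by a lipid anchor and binds plexin C1 and integrins, had 633 ± 51.2 per kb in male MO and 603 ± 36.7 in male SAL, and 568 ± 67.9 in female MO and 600 ± 40.8 in female SAL. Sema6b, a transmembrane ligand of A-type plexins, had 609 ± 43.8 per kb in male MO and 601 ± 41.0 in male SAL, and 569 ± 58.0 in female MO and 595 ± 29.8 in female SAL. The levels of Sema7a and Sema6b lay within 1 SD of each other in every group. The highest of the secreted class 3 was Sema3c, with 120 ± 6.00 per kb in male MO, 118 ± 7.07 in male SAL, 109 ± 20.9 in female MO and 116 ± 8.42 in female SAL. Sema4a led its class at 138 ± 7.20 per kb in male MO and 141 ± 11.3 in male SAL, and at 126 ± 19.7 in female MO and 134 ± 8.5 in female SAL. Sema5a did so at 68.5 ± 10.9 per kb in male MO and 67.7 ± 7.33 in male SAL, and at 65.5 ± 15.5 in female MO and 63.4 ± 10.9 in female SAL.

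The receptors of the semaphorins were more alike. Plxna1, one of the A-type plexins that pair with neuropilins, was the highest, at 197 ± 22.8 per kb in male MO, 204 ± 17.2 in male SAL, 169 ± 43.2 in female MO and 185 ± 29.6 in female SAL. Plxnd1, the receptor of Sema3e, had 851 ± 188 normalized counts in male MO, 857 ± 119 in male SAL, 790 ± 142 in female MO and 795 ± 175 in female SAL, which is 108 to 117 per kb over the 4 group means. Plxnc1, the receptor of Sema7a, had 107 ± 7.16 per kb in male MO and 107 ± 3.76 in male SAL, and 92.8 ± 21.3 in female MO and 95.3 ± 16.8 in female SAL. Plxnb1, a receptor of Sema4d, had 103 ± 11.5 per kb in male MO, 103 ± 8.46 in male SAL, 125 ± 36.8 in female MO and 106 ± 15.3 in female SAL. The levels of Plxnd1, Plxnc1 and Plxnb1 did not differ by more than the larger of the SDs in any group. Of the 2 neuropilins Nrp1 was the higher, at 88.2 ± 10.9 per kb in male MO, 87.1 ± 5.75 in male SAL, 82.2 ± 15.0 in female MO and 80.9 ± 6.51 in female SAL, and Nrp2 lay at 21.6 to 26.1 per kb over the 4 group means.

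**Figure D1:**
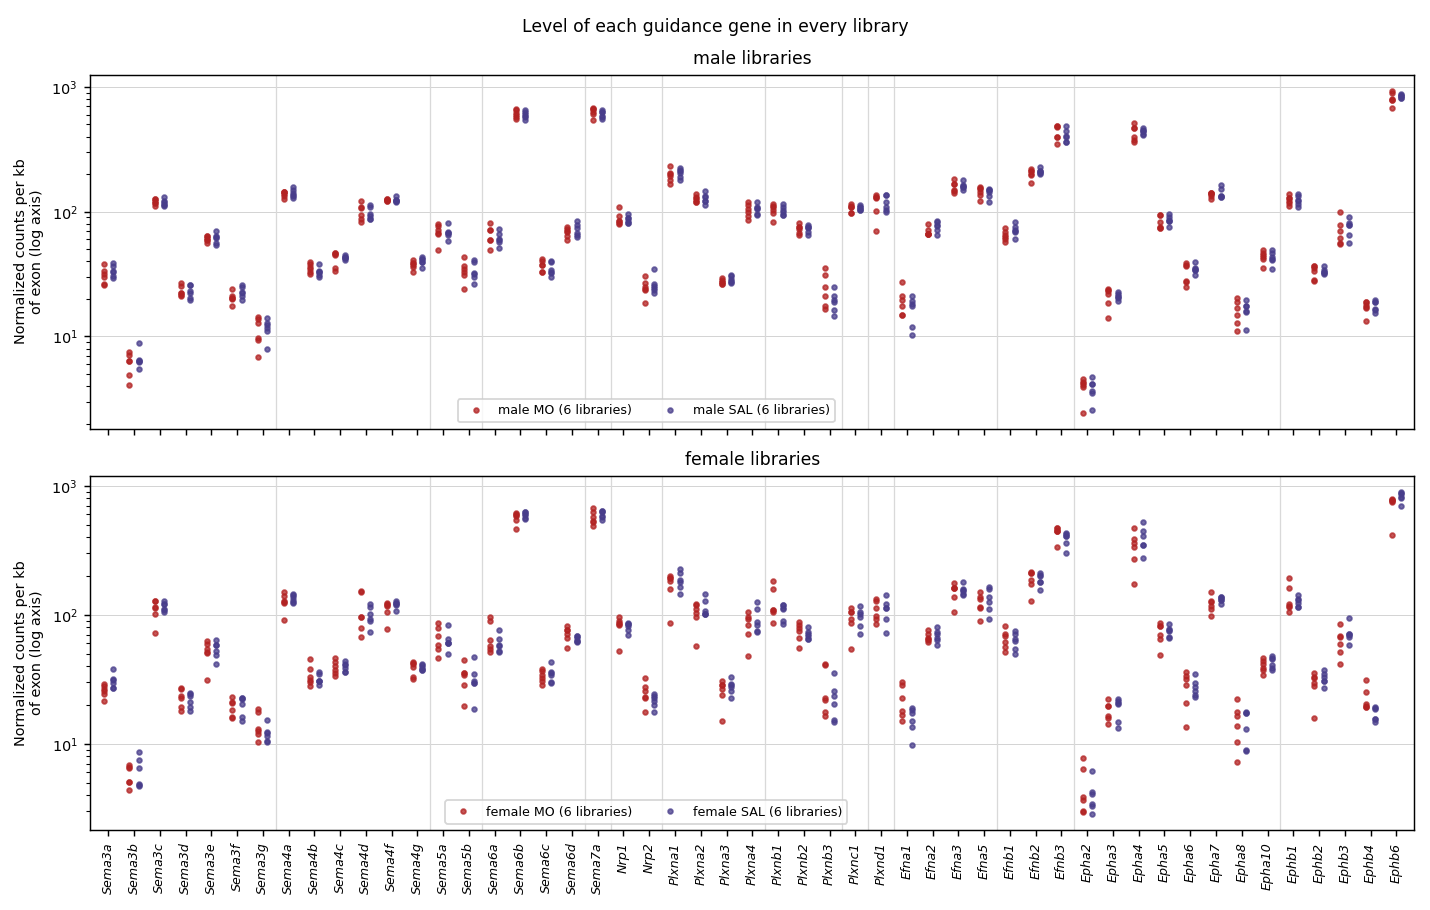
Normalized counts per kb of exon (log axis) of the 51 genes in each male (top) and female (bottom) library, with MO points left of SAL points for each gene. Ephb6, Sema7a and Sema6b were the highest and Epha2 the lowest, and the MO and SAL points of nearly every gene lie over each other.

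Male MO and male SAL offspring were compared first within their own table, to ask whether perinatal morphine left a change in these genes at weaning. No member reached an unadjusted p of 0.05 in limma, 0 of 51, beside a background of 1.33% of 16662 genes higher and 1.52% lower in male MO, and 0 of all genes passed an adjusted p of 0.05. Log2 fold changes of the 51 ran from -0.14 to 0.32, 20 of them above 0 and 31 below, with a median of -0.02 beside 0.00 over all genes. The 95% interval lay within 0.5 log2 units of 0 for 48 of the 51, so larger changes were outside the interval for most of these genes. By role, the median was 0.00 for the 20 semaphorins, -0.03 for the 2 neuropilins, -0.01 for the 9 plexins, -0.02 for the 7 ephrins and -0.04 for the 13 Eph receptors. The largest estimate was that of Plxnb3, a plexin known from oligodendrocytes, at 159 ± 49.1 normalized counts in male MO and 125 ± 24.1 in male SAL (SD, n = 6 each; log2 fold change 0.32, interval -0.05 to 0.68, exact permutation p = 0.162). Leaving out 1 library at a time gave 0 to 4 members past the unadjusted threshold: without PFC19 these were Efna2, Efnb1, Plxnb3 and Sema7a, and without PFC12 they were Efna2 and Efnb1. PFC19 held the lowest value of the 12 male libraries for 14 of the 51 genes. In the same males 6 of 8 meninges and fibroblast markers were lower in MO at an unadjusted p of 0.05, their sum running over 1272 to 2394 normalized counts in MO and 2101 to 3595 in SAL with 0 markers at 0, and their part in these values was not tested.

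In females 3 of the 51 genes had an unadjusted p under 0.05. Ephb4 and Efna1 were higher in female MO, beside a background of 1.81% of 16717 genes higher, and Sema3a was lower, beside a background of 1.12% lower. None passed an adjusted p of 0.05, nor did any other gene (smallest limma adjusted p = 0.918), and 5.88% of the members against 2.93% of all genes were under the unadjusted threshold. Log2 fold changes ran from -0.28 to 0.47, 21 above 0 and 30 below, with a median of -0.04 beside 0.00 over all genes. Without PFC1 27 of the 51 were above 0 and 24 below, with a median of 0.01, and 2, Ephb4 and Sema3a, were under the unadjusted threshold. With PFC1 intervals were wider than in males, and 37 of 51 lay within 0.5 log2 units of 0. By role the median was -0.03 for semaphorins, 0.09 for neuropilins, -0.06 for plexins, -0.02 for ephrins and -0.07 for Eph receptors, and without PFC1 it was -0.0032, 0.16, 0.01, 0.09 and -0.05 in that order. The 4 A-type plexins all had estimates below 0, from -0.20 to -0.15, and the 3 B-type plexins all had estimates above 0, from 0.06 to 0.22, and none of these 7 reached the unadjusted threshold. Without PFC1 the A-type plexins ran from -0.04 to 0.01, with Plxna1 at 0.01, and the B-type plexins from 0.01 to 0.08. The median coefficient of variation of the 51 genes was 19.1% in female MO, and 12.5% without PFC1, against 13.4% in female SAL, 11.3% in male MO and 9.17% in male SAL.

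**Figure D2:**
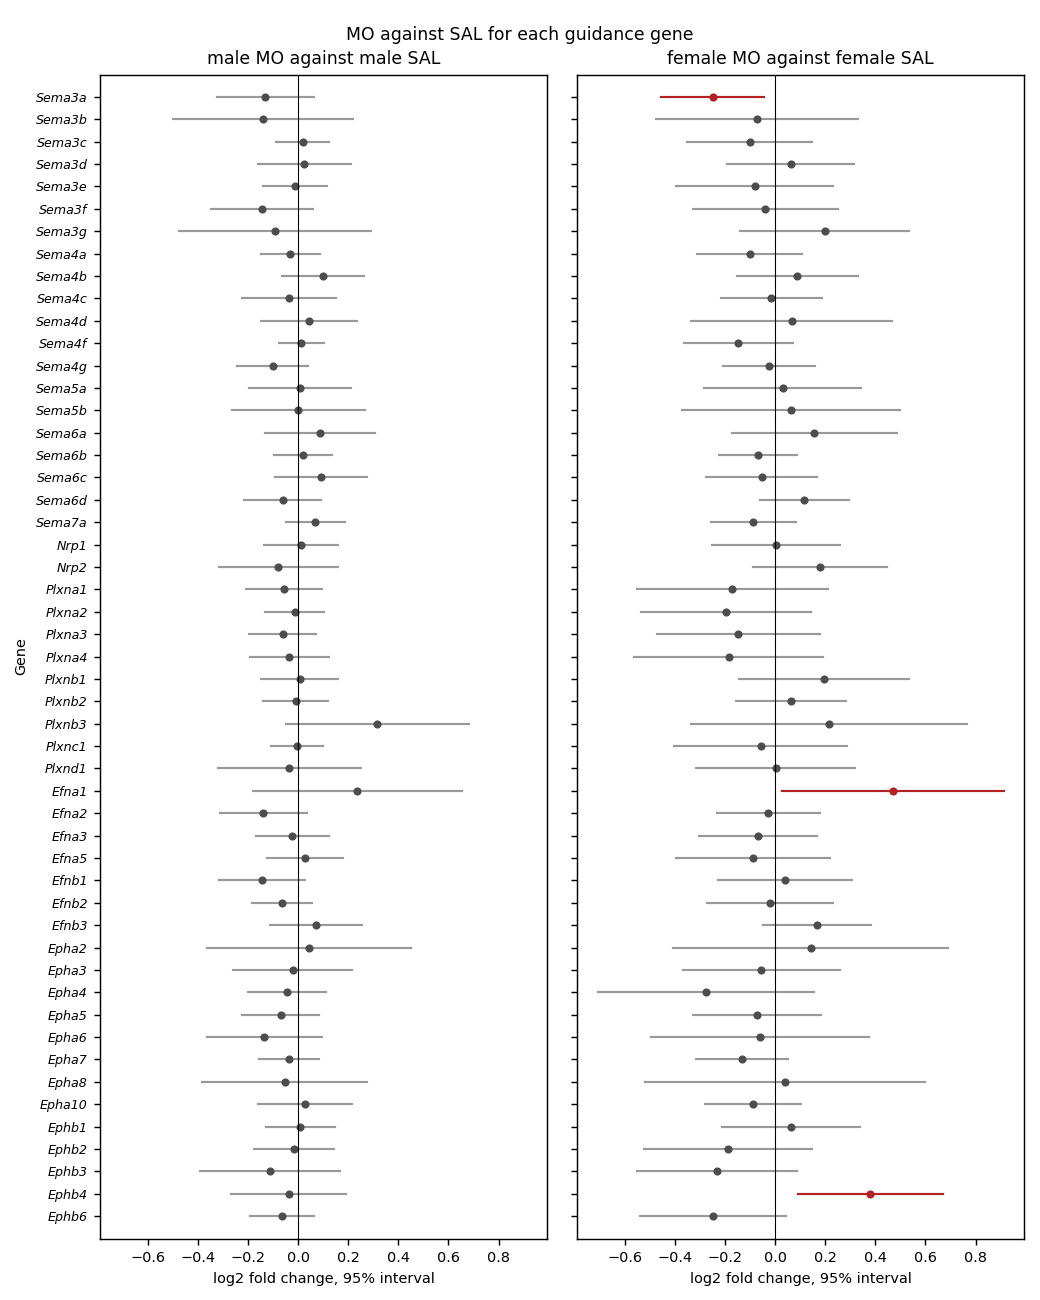
Log2 fold change of MO against SAL (x axis) with its 95% limma interval for each of the 51 genes (y axis), in males (left) and females (right). Red marks an unadjusted p under 0.05, which Efna1, Ephb4 and Sema3a reached in females and no gene reached in males.

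Ephb4 encodes the Eph receptor that marks veins and binds ephrin-B2, which marks arteries. It is annotated on the plus strand at chr5:137350109-137378669 of GRCm38. It had 145, 118, 89.3, 94.9, 89.2 and 91.8 normalized counts in the female MO libraries PFC1, PFC3, PFC5, PFC8, PFC21 and PFC23, against 87.6, 69.0, 72.3, 86.0, 89.0 and 71.7 in the female SAL libraries PFC2, PFC4, PFC6, PFC7, PFC22 and PFC24. All 6 MO libraries lay above all 6 SAL libraries, but the lowest MO library and the highest SAL library differed by less than 1 normalized count, and PFC1 and PFC3 were the 2 highest. No overlap between the groups was seen for 0.132% of all genes tested in females, and Ephb4 was the only such gene of the 51. The group means were 105 ± 22.6 in MO and 79.3 ± 9.20 in SAL (SD, n = 6 each), 1.32-fold higher in MO, with a log2 fold change of 0.38 (SE 0.14, 95% interval 0.09 to 0.67, limma adjusted p = 0.918). The 2-sided exact permutation p was 0.00216, the smallest that 924 relabellings of 6 against 6 can give. Without PFC1 the log2 fold change was 0.28, and with a term for oligodendrocyte markers, chosen after seeing the data, it was 0.32, both still under the unadjusted limma threshold.

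In male libraries Ephb4 had 78.5, 88.1, 79.8, 87.4, 83.4 and 61.2 normalized counts in MO (PFC10, PFC11, PFC13, PFC15, PFC17 and PFC19), against 87.5, 90.4, 87.3, 76.3, 71.0 and 77.1 in SAL (PFC9, PFC12, PFC14, PFC16, PFC18 and PFC20). These groups overlapped from 71.0 to 88.1, with PFC19 below every SAL library and PFC12 above every MO library. The male log2 fold change was -0.04 (interval -0.27 to 0.19). No overlap between MO and SAL was seen for 0.06% of all genes tested in males, and for 0 of the 51. Female and male differences were 0.42 log2 units apart (SE 0.17, interval 0.06 to 0.77, limma adjusted p = 1.00), the only one of the 51 differences between the sexes under the unadjusted threshold, beside a background of 2.1% of 17303 genes. Leaving out 1 library at a time gave 0.32 to 0.46, the lowest without PFC1, each still under the unadjusted threshold. Efnb2, the ephrin-B2 gene, had a log2 fold change of -0.02 in females (1284 ± 226 normalized counts in MO and 1289 ± 144 in SAL). Without PFC1 the Efnb2 value was 0.09 (interval -0.09 to 0.26). In females the estimates of all 7 endothelial markers, whose tissue Ephb4 is known from, were above 0 and 2 of them, Pecam1 (0.33) and Flt1 (0.21), were under the unadjusted threshold. Their sum ran over 3946 to 6122 normalized counts in female MO libraries and 3716 to 4511 in those of female SAL, with 0 markers at 0. Of the 6 pericyte and smooth muscle markers all 6 estimates were above 0, 1 of them, Rgs5 (0.25), under the threshold, and the sum ran over 3261 to 4843 in MO and 3003 to 3656 in SAL. Of 8 neutrophil and blood markers 3 were higher in female MO at the unadjusted threshold (Ltf, S100a8 and S100a9). These 3 were low, at 8.38 ± 10.1, 22.3 ± 35.9 and 25.3 ± 41.9 normalized counts in female MO in that order. In female SAL they had 0.52 ± 0.57, 2.91 ± 1.88 and 3.18 ± 3.02 (SD, n = 6 each). The sum of all 8 blood markers ran over 4401 to 17845 in MO and 2681 to 10010 in SAL. PFC1 held the highest of the 12 female sums for all 3 lists. Without it the estimates were above 0 for 7 of 7 endothelial, 5 of 6 pericyte and 8 of 8 blood markers, and Pecam1, Ltf, S100a8 and S100a9 were under the threshold. Vessel and blood lists were not alone in this, since in females every marker of oligodendrocytes (8), their precursors (6), astrocytes (6), microglia (7) and striatum (8) also had an estimate above 0, none under the threshold. Without PFC1 these counts were 4, 6, 4, 3 and 2 in that order. The part of these markers in the Ephb4 difference was not tested.

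Efna1 encodes ephrin-A1, a lipid-anchored ligand of EphA receptors that was first described in endothelium. It is annotated on the minus strand at chr3:89271733-89281142 of GRCm38. In females it had 51.8, 55.1, 32.8, 27.6, 41.3 and 30.8 normalized counts in MO, against 31.7, 34.5, 27.3, 33.5, 17.9 and 24.6 in SAL, in the same order of libraries. PFC1, PFC3 and PFC21 lay above every SAL library and the other MO libraries lay among them. The means were 39.9 ± 11.5 in MO and 28.2 ± 6.33 in SAL (SD, n = 6 each), 1.41-fold higher in MO, with a log2 fold change of 0.47 (SE 0.21, interval 0.03 to 0.91, limma adjusted p = 0.918). The unadjusted limma p was 0.0391 and the 2-sided exact permutation p was 0.0649. The observed coefficient of variation was 28.8% in MO and 22.4% in SAL, and counting error alone, from the estimated reads, would give 15.8% in MO and 18.8% in SAL. The unadjusted p exceeded 0.05 when any of PFC1, PFC3, PFC21, PFC6, PFC22 or PFC24 was left out, with log2 fold changes of 0.35 to 0.47. With a term for oligodendrocyte markers the estimate was 0.35 and stayed under it.

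In males Efna1 had 27.2, 27.0, 38.4, 36.0, 32.2 and 49.6 normalized counts in MO, against 21.7, 18.7, 35.3, 31.9, 33.1 and 38.8 in SAL. The groups overlapped, with 1 MO library above and 2 SAL libraries below all of the other group, and the log2 fold change was 0.24 (interval -0.18 to 0.65, exact permutation p = 0.288). Over both sexes the mean of the within-sex differences was 0.35 (SE 0.15, interval 0.05 to 0.66, limma adjusted p = 0.857). Efna1 was 1 of 51 genes higher in MO over both sexes at the unadjusted threshold, beside a background of 2.46% of 17303 genes. Epha2, an ephrin-A1 receptor of epithelia and vessels, had 21.5 ± 9.40 normalized counts in female MO and 18.7 ± 5.38 in female SAL (log2 fold change 0.14, interval -0.41 to 0.69).

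Sema3a encodes the founding secreted semaphorin, a repellent of axons that acts through neuropilin-1 and A-type plexins and is later held in the perineuronal nets of interneurons. It is annotated on the plus strand at chr5:13125414-13602565 of GRCm38. In females it had 295, 356, 367, 400.0, 391 and 339 normalized counts in MO, against 374, 373, 434, 409, 527 and 442 in SAL. All 6 MO libraries lay below the SAL mean and 4 of them below every SAL library, so the groups overlapped only at their edges. The means were 358 ± 38.0 in MO and 427 ± 57.1 in SAL (SD, n = 6 each), with a log2 fold change of -0.25 (SE 0.10, interval -0.45 to -0.04, limma adjusted p = 0.918, exact permutation p = 0.0260). Without PFC1 the log2 fold change was -0.19 and still under the unadjusted limma threshold, and without PFC22, the highest SAL library, it was -0.19 and no longer under it. With a term for oligodendrocyte markers it was -0.19 and under the threshold.

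In males Sema3a had 439, 533, 461, 362, 413 and 360.5 normalized counts in MO, against 462, 510, 456, 539.9, 409 and 424 in SAL. 5 of 6 MO libraries lay below the SAL mean, but the groups overlapped, with a log2 fold change of -0.13 (interval -0.33 to 0.06, exact permutation p = 0.255). Over both sexes the difference was -0.19 (SE 0.07, interval -0.33 to -0.05, limma adjusted p = 0.857). Sema3a was 1 of 51 genes lower in MO over both sexes at the unadjusted threshold, beside a background of 2.18% of 17303 genes. Its receptors gave no such value in females: the log2 fold change was 0.00 for Nrp1 (interval -0.25 to 0.26), -0.17 for Plxna1 (interval -0.55 to 0.21) and -0.19 for Plxna4 (interval -0.56 to 0.19). Without PFC1 the values were 0.13 for Nrp1 (interval -0.01 to 0.27), 0.01 for Plxna1 (interval -0.20 to 0.22) and -0.04 for Plxna4 (interval -0.32 to 0.25). Sequence shared with other genes was small, since 0.557% of the 85-base stretches of Sema3a, the length of a read, also occurred in another annotated gene, and 0% of those of Ephb4 and Efna1 did.

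**Figure D3:**
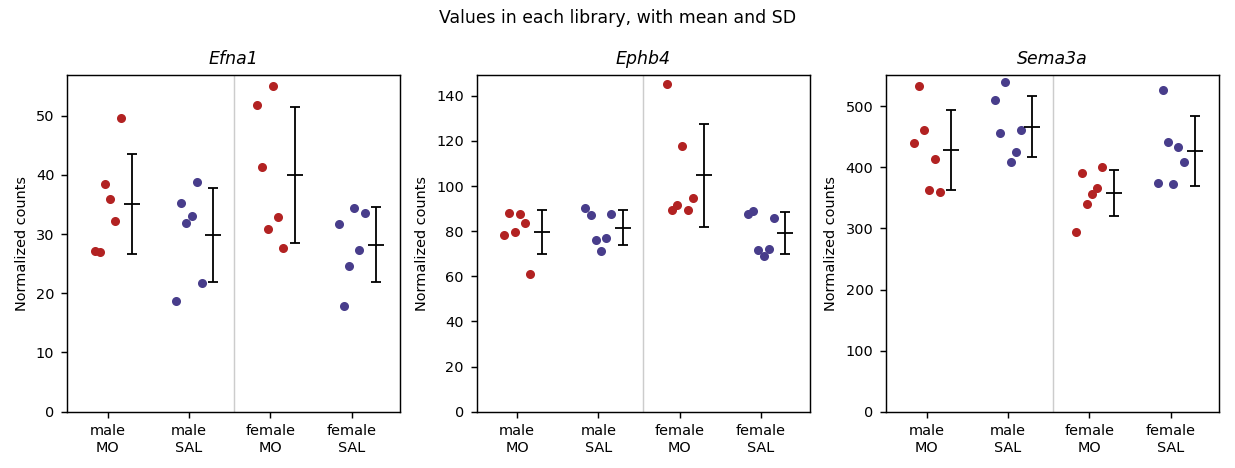
Normalized counts of Efna1, Ephb4 and Sema3a in each library (points), with the group mean and SD beside them, male groups left and female groups right. In females Ephb4 did not overlap between MO and SAL, while Efna1 and Sema3a overlapped, and in males all 3 overlapped.

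Estimates had the same sign in males and females for 36 of the 51 genes, 13 above 0 and 23 below 0 in both, and opposite signs for 15. Without PFC1 in the female fit the sign was the same for 28 and opposite for 23. The share of all genes with the same sign in both sexes was not counted beside these. The genes that work with these ligands and receptors inside the cell or beside them were followed in 3 further lists. Of 36 measured partners of semaphorins and plexins, such as collapsin response mediators and MICAL enzymes, 0 were under an unadjusted p of 0.05 in males and 3, or 8.33%, were in females, beside 2.85% of all genes in males and 2.93% in females. Itga1, an integrin subunit (log2 fold change 0.27), and Kdr, the VEGF receptor of endothelium (0.19), were higher in female MO, and Mical2, an actin-oxidising enzyme (-0.17), was lower. Without PFC1 Mical2 (-0.13) stayed under the threshold, while Itga1 (0.23) and Kdr (0.19) did not. Of 28 partners of ephrins and Eph receptors 0 were under that threshold in either sex. Of 28 other axon guidance ligands and receptors, such as netrins, slits and their receptors, Ntng1, a netrin G, was lower in male MO (log2 fold change -0.18, 303 ± 31.0 normalized counts in MO and 342 ± 22.6 in SAL), which is 3.57% of the list beside the same 2.85% of all genes, and 0 were under the threshold in females. None of these genes passed the adjusted threshold in limma.

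Summed over Eph receptors, plexins or semaphorins, MO and SAL differed by less than the larger of the 2 group SDs. The 13 Eph receptors summed to 11849 ± 903 normalized counts in male MO and 12199 ± 302 in male SAL, while the female sums were 10271 ± 1578 (MO) and 11379 ± 901 (SAL; SD, n = 6 each). The 9 plexins summed to 9079 ± 634 in male MO and 9180 ± 535 in male SAL, while the female sums were 8135 ± 803 (MO) and 8449 ± 910 (SAL). The 20 semaphorins summed to 12678 ± 410 in male MO and 12558 ± 384 in male SAL, while the female sums were 11934 ± 777 (MO) and 12115 ± 419 (SAL). In female MO the lowest of these 3 sums was in PFC1 each time, and its Eph receptors summed to 7316, against 9918 or more in the other female libraries. Without PFC1 the female MO sums were 10862 ± 702 for Eph receptors, 8438 ± 340.4 for plexins and 12073 ± 781 for semaphorins (SD, n = 5). With PFC1 the 7 ephrins summed to 3939 ± 391 in female MO and 3826 ± 240 in female SAL. The 2 neuropilins summed to 1097 ± 175 and 1046.5 ± 70.8 in that order. In males the ephrin sums were 4129 ± 201 (MO) and 4146 ± 196 (SAL), and the neuropilin sums 1156 ± 106 and 1162 ± 103. Without PFC1 the female MO sums were 4069 ± 256 for ephrins and 1159 ± 96.4 for neuropilins (SD, n = 5). That neuropilin sum lay above SAL by more than the larger SD.

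**Figure D4:**
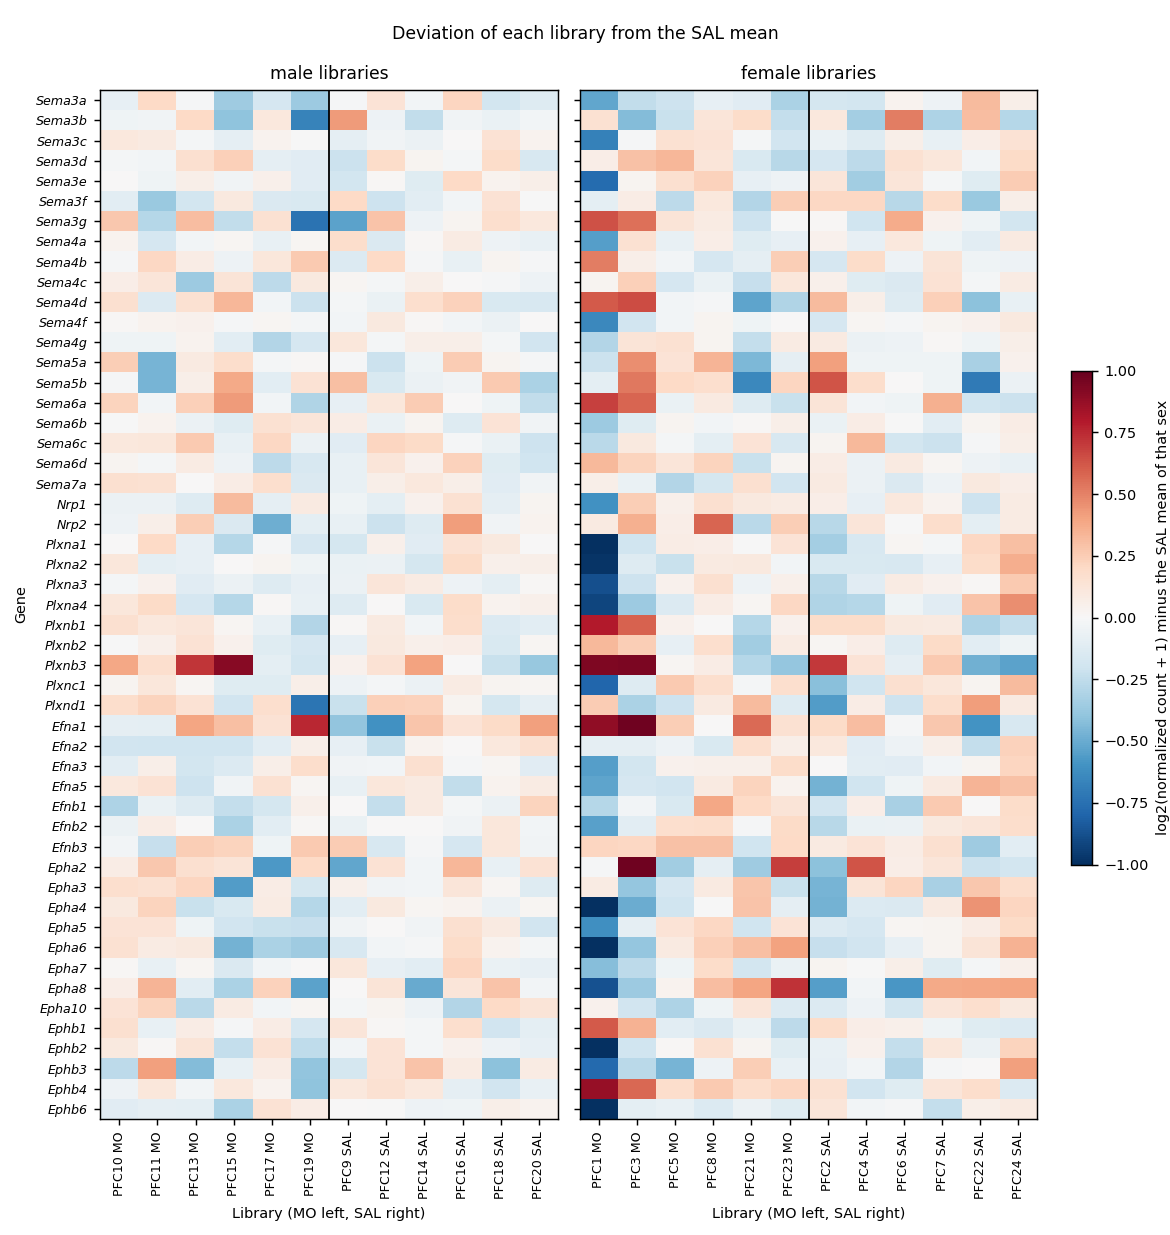
Difference of each library from the SAL mean of its sex in log2(normalized count + 1), from blue (lower) to red (higher), for the 51 genes (rows) in male (left) and female (right) libraries, MO left of the black line and SAL right of it. PFC1 carries most of the strong colours, with the 4 A-type plexins and Ephb6 low and Plxnb1, Plxnb3, Efna1 and Ephb4 high.

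Several members varied with the amount of oligodendrocyte marker RNA in a library. After seeing PFC1, the level of each gene was set against the summed level of 8 oligodendrocyte markers, with MO as a further term, and slopes are given in log2 units per doubling of that sum. Plxnb3 and Sema4d, the gene of a semaphorin that oligodendrocytes are known to make, had slopes above 0 in both tables at an adjusted p of 0.05 over all genes. For Plxnb3 the slope was 0.58 ± 0.13 in males and 0.53 ± 0.06 in females (SE, 12 libraries each), and for Sema4d 0.34 ± 0.06 in males and 0.37 ± 0.04 in females. Plxnb3 had 267 and 268 normalized counts in PFC1 and PFC3, the female MO libraries with the most oligodendrocyte marker RNA, 106 to 147 in the other female MO libraries and 95.6 to 228 in female SAL libraries. Sema4d had 1147 and 1180 in PFC1 and PFC3, 519 to 741 in the other female MO libraries and 562 to 932 in female SAL libraries. In males these 2 were the only members with a slope above 0 at that adjusted threshold, 3.92% of the 51 beside a background of 0.751% of 16654 genes. At the same threshold 0 members had a slope below 0, beside 0.0841%. Without PFC15, the male library with the most oligodendrocyte marker RNA, the slopes were 0.56 for Plxnb3 and 0.37 for Sema4d and neither passed the adjusted threshold (limma adjusted p = 0.527 for Plxnb3 and 0.0849 for Sema4d).

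In females 7 members (13.7%) had slopes above 0 at an adjusted p of 0.05 in limma, beside a background of 11.8% of 16709 genes. That share was near the background. At the same threshold 19 (37.3%) had slopes below 0, beside a background of 11.3%. The 7 were Plxnb3, Sema4d, Plxnb1 (0.32), Efna1 (0.32), Sema6a (0.29), Ephb1 (0.24) and Plxnb2 (0.14), which include all 3 B-type plexins. The 19 included all 4 A-type plexins, from Plxna4 (-0.35) and Plxna1 (-0.34) to Plxna2 (-0.28) and Plxna3 (-0.25), and 7 Eph receptors, among them Epha8 (-0.44), Epha4 (-0.40) and Epha6 (-0.39). Many of these slopes rested on PFC1: without it 7 members had slopes above 0, beside 4.15% of all genes, and 7 had slopes below 0, beside 3.08%. Those below 0 without PFC1 were Plxna1, Plxna4, Plxnd1, Efna5, Epha3, Epha4 and Epha6, and those above 0 were Plxnb1, Plxnb3, Sema4d, Sema5a, Sema5b, Sema6a and Ephb1. The male libraries were not used to choose the 7 and the 19, and male slopes were counted there by sign alone, at any p. Of the 7 members with female slopes above 0, 7 had a male slope above 0. Of the 19 below 0, 18 had a male slope below 0, and of the other 25 members 19 had one above 0 and 6 below. Without PFC15 the male slope was above 0 for 7 of the 7 and below 0 for 14 of the 19, as it was above 0 for Epha5, Epha6, Ephb2, Plxna2 and Sema3a, and the other 25 gave 19 above 0 and 6 below. Among all genes with a female slope, the share with a male slope of the same sign was not counted. Whether the members agreed more often than other genes is therefore not known. In the female comparison with SAL the same 7 all had estimates above 0, with a median of 0.16, and 18 of the 19 had estimates below 0, with a median of -0.15. Without PFC1 5 of the 7 had estimates above 0, with a median of 0.05, and 11 of the 19 below 0, with a median of -0.0019. Slope and comparison come from the same female libraries, so these counts are a description. The estimates of all 8 oligodendrocyte markers were above 0 in MO, with a median of 0.23 in males and 0.31 in females, and 0 of 8 were under an unadjusted p of 0.05 in limma in either sex. Without PFC1 4 of the 8 were above 0 in females, with a median of 0.0011. Their sum ran in males over 39665 to 140470 (MO) against 46611 to 80886 (SAL), and in females over 46969 to 305790 (MO) against 31615 to 139180 (SAL).

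**Figure D5:**
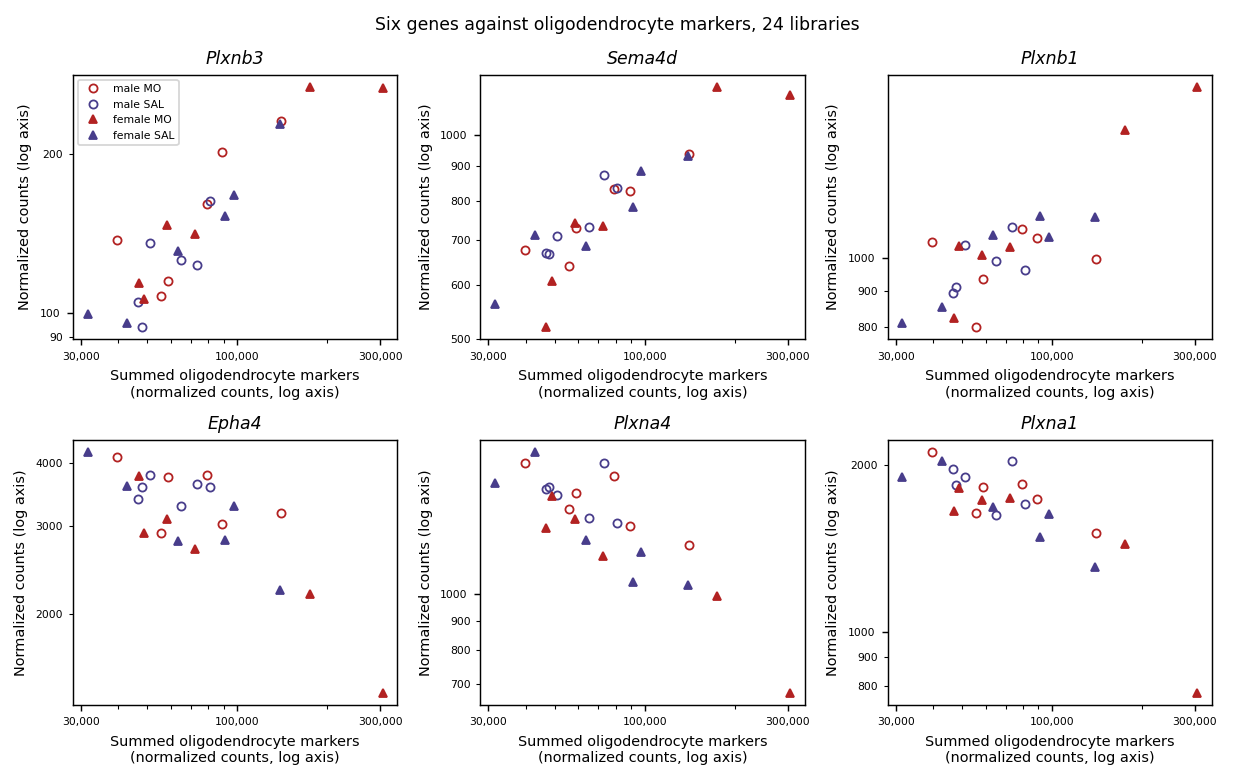
Normalized counts of 6 genes (y axis, log) against the summed level of 8 oligodendrocyte markers (x axis, normalized counts, log) in 24 libraries, open circles for males and filled triangles for females, red for MO and dark blue for SAL; male and female tables were normalized separately. Plxnb3 and Sema4d climb with the markers in both sexes, while Epha4, Plxna4 and Plxna1 decline with them in females and PFC1 is the point at the far right.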

How the data were processed

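Directional poly(A) RNA libraries of P21 mPFC were sequenced by the authors as single 85-base reads, aligned to mm10 with STAR, quantified with Salmon and normalized for DESeq2. The deposited unit is a signal: normalized counts made by the authors, in 1 table for each sex, from which raw reads could not be recovered. Values were tested as log2(value + 1) with limma 3.58.1 (R 4.3.3; empirical Bayes with an intensity trend), over genes summing to at least 10, with Benjamini-Hochberg adjustment over all genes kept. Adding 1 shrinks the fold changes of low genes. Male and female tables were normalized separately, so only differences within a table entered fits over both sexes. Single genes were tested by 2-sided exact permutation over 924 relabellings. The column names of 11 libraries end in combined, the meaning of which is not given (4 female MO, 4 female SAL, 2 male MO and 1 male SAL). Positions, exon lengths (union of exons) and shared 85-base stretches came from GENCODE for GRCm38, promoters from RefSeq, all matched by symbol.

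The members and lists were chosen with earlier results of these data known. Values of each library were printed for members with an unadjusted p under 0.05 in any of 4 contrasts, group means and SDs for the highest member per kb of each family, and partner genes were named at an unadjusted p under 0.05, up to 3 a list and sex. Slopes on oligodendrocyte markers were added after seeing the data. Alternatives were pseudocounts of 0.5 and 5, other filters, sums and quantiles as scaling, sample weights, a term for combined libraries and leaving out each library. The fit was tested on simulated data. Figures were drawn with matplotlib 3.10.9.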

Additional observations from a re-analysis of the deposited data

Results flagged for a closer look

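Among 17 of the genes, 68 groups of 6 libraries were searched for a single library far from its group, and 5 were found. Chance alone gives about 1 in 20 groups, so these 5 are not read as an excess. Genes share their libraries, so the groups are not independent. In female MO the library PFC1 lay far below the other 5 for Ephb6 (1561 normalized counts, the next lowest 2833), Plxna1 (777, the next 1443) and Nrp1 (517, the next 816). Also in female MO, PFC21 lay far below the others for Efnb3 (1067, the next 1411). In male MO, PFC19 lay far below the others for Ephb4 (61.2, the next 78.5). The MO minus SAL difference of Ephb4 was 0.42 log2 units larger in females than in males (limma adjusted p = 1.00), the only one of the 51 genes for which the test of the difference between the sexes had an unadjusted p under 0.05. Without PFC1 it was 0.32 log2 units larger.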

How the results depend on the processing

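Under every alternative and with each library left out, 0 genes of the whole tables passed an adjusted p of 0.05 in limma in males, in females, over both sexes or for the difference between the sexes. Counts of members under an unadjusted p of 0.05 moved more. With sample weights they were 1 in males (Plxnb3), 1 over both sexes (Sema3a) and 2 for the difference between the sexes (Ephb4 and Sema7a), against 0, 2 and 1 with equal weights. Leaving out 1 library gave 0 to 4 in males (4 without PFC19, 2 without PFC12), 1 to 6 in females (6 without PFC21, 1 without PFC22), 2 to 6 over both sexes (6 without PFC21, 4 without PFC11, PFC5, PFC2 or PFC7) and 1 to 4 for the difference between the sexes (4 without PFC21). Members' slopes on oligodendrocyte markers were counted at an adjusted p under 0.05 in limma. The number above 0 in males was 1 without a filter and 0 to 3 with a library left out. The number below 0 was 0 to 1 in males and 7 to 20 in females, with 7 without PFC1. Ephb4 in females stayed under 0.05 in every alternative run, at log2 fold changes of 0.28 to 0.42. With sample weights Efna1 was no longer under it, at 0.33 in females and 0.28 over both sexes. Of 781 values of single genes under alternatives, 764 counted as unchanged, 13 lost the threshold, 4 gained it and 0 changed direction while called. For genes not called, unchanged meant staying over the threshold with a shift within a set limit, whatever the sign. In females Plxna1 went from -0.17 to 0.01 without PFC1 and still counted as unchanged. The cause of these moves was not tested. With a minimum mean of 1 the rule gave 54 genes, and with 10 it gave 51. Library names are unique to a library, so no paired analysis was possible because the groups share no replicate numbers. Low genes such as Epha2 limit what could be seen, since its female interval reached from -0.41 to 0.69.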
